A study of Mus musculus with 8 samples.

Results

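Gcsam, the mouse counterpart of the human germinal centre gene HGAL, was followed together with 6 genes whose products have been reported to act with HGAL: Syk, Grb2, Arhgef11, Arhgef12, Rhoa and Myh9. They were found by symbol among the array's probe sets, keeping those that the platform table assigns to a single gene. This gave 9 probe sets for the 7 genes, out of 21640 probe sets with a single symbol that stand for 19937 genes. Rhoa and Myh9 had 2 probe sets each, and the one with the higher mean over all arrays is called the main one. The Sca1-HGAL group consisted of adult CBAxC57BL/6J mice carrying HGAL (GCET2) driven by the Sca1 (Ly-6E.1) promoter, which one label calls transgenic and another knock-in. The Control group consisted of wild-type littermates on the same background. From each spleen sample, B cells positive for CD22 and B220 were sorted and their total RNA was put on an Affymetrix Mouse Gene 1.0 ST array, 4 arrays per group. The Sca1 promoter is not that of the germinal centre, where HGAL is normally found, so it is this promoter that decides which cells carry the protein. Whether the arrays come from different mice is not stated, and p-values then cover only the scatter among these samples.

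HGAL is an adaptor made by B cells of the germinal centre, which mutate and select their antigen receptors. When the B-cell receptor is engaged, the kinase Syk binds its phosphorylated tails and starts the signal, and HGAL has been reported to increase the activity of Syk. Human HGAL has also been reported to bind the adaptor GRB2, to act through the RhoA exchange factors PDZ-RhoGEF and LARG (Arhgef11 and Arhgef12 in the mouse) and to bind myosin II, and to hold back lymphocyte movement. These are effects on proteins, while the arrays measure RNA.

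Levels below are log2 intensities. Differences are Sca1-HGAL minus Control on the log2 scale, with the standard error (SE) and a 95% confidence interval from limma, a linear model that shares variance information over probe sets. Adjusted p-values are Benjamini-Hochberg values over all 21640 probe sets, and an adjusted p under 0.05 counts as passing. Median intensities of the arrays lay between 145.2 and 151.4, and precision is limited by 4 arrays a group. B-cell marker genes, 7 of 8 measured, had a mean log2 level of 12.78 to 12.86 on Sca1-HGAL and 12.85 to 12.89 on Control arrays, and all 7 were above log2 6 in both groups. Of the markers of other cells, all 7 measured T cell genes and 7 of 8 measured macrophage and monocyte genes were above log2 6 in both groups. That level lies below the array medians of log2 7.22 to 7.30, so passing it does not show that such cells were present. Control replicates 2 and 4 were high in Xist, an RNA that coats the inactive X chromosome, at 12.17 and 12.18, while Xist was at 5.28 to 5.65 on the Sca1-HGAL arrays and at 5.32 and 5.56 on Control replicates 1 and 3. The 2 arrays are therefore left out in a second comparison given beside the results below.

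None of the 9 probe sets passed, against 0.00462% of all probe sets, a single one. At an unadjusted p under 0.05, 3 of the 9 differed, those of Grb2 and Arhgef12 and the second of Myh9, each with the higher mean in Sca1-HGAL arrays. Over all probe sets 9.59% did, 5.53% with the higher and 4.06% with the lower mean in Sca1-HGAL arrays. The Sca1-HGAL and Control values overlapped for all 9 probe sets, while 5.45% of all probe sets did not overlap, 3.15% with Sca1-HGAL higher and 2.3% with Sca1-HGAL lower. Of the main probe sets, 2 of 7 had an unadjusted p under 0.05, also without the 2 Xist-high Control arrays, where 8.07% of all probe sets did.

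**Figure D1:**
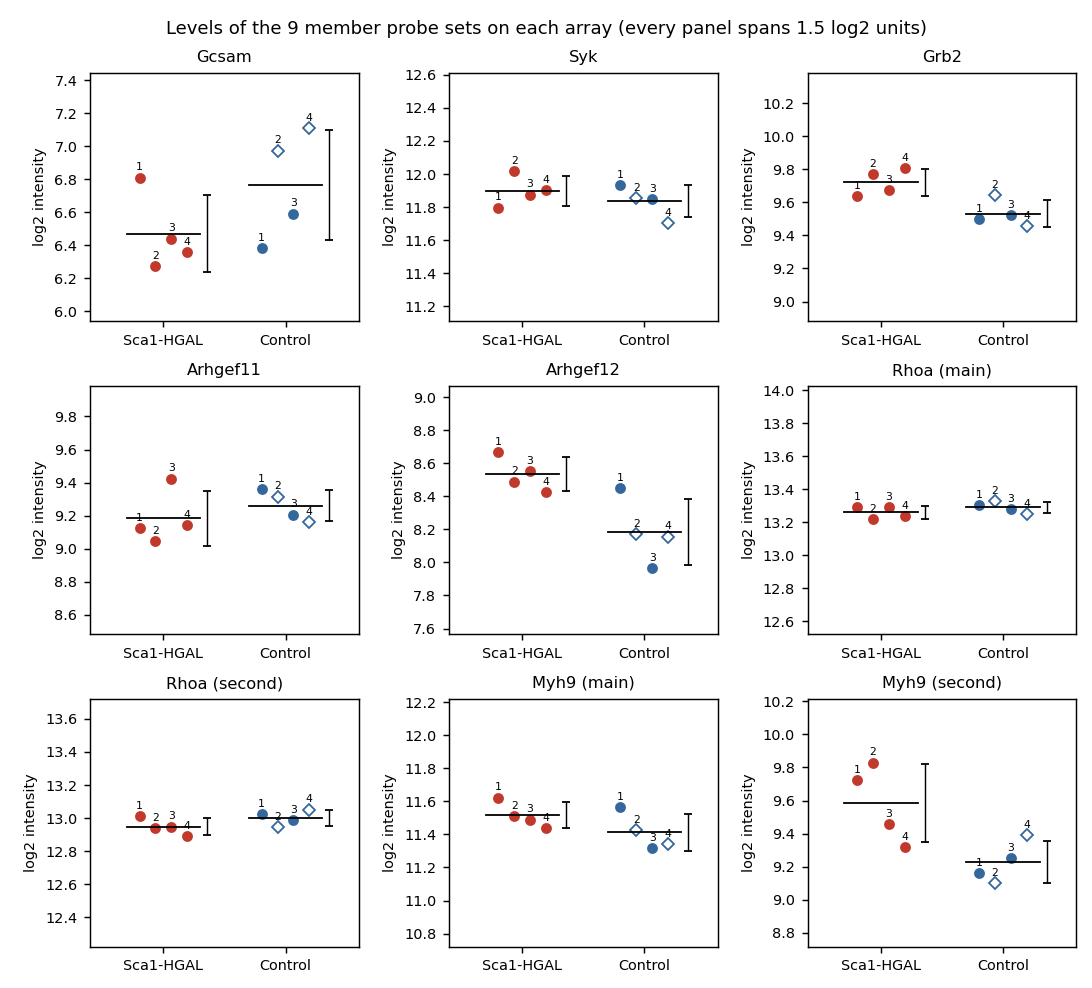
The log2 intensity of each of the 9 probe sets is plotted on the vertical axis for the 4 Sca1-HGAL arrays (red) and the 4 Control arrays (blue), numbered by replicate, with the group mean as a line and its SD as a bar. Open diamonds are the 2 Control arrays with high Xist, which hold the highest Gcsam levels, 6.97 and 7.11, and in every panel the groups overlap.

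Gcsam encodes the mouse form of HGAL, also called M17 and Gcet2, and lies on chromosome 16 (GRCm38.p6, chr16:45610440-45622867). Its probe set was at 6.81, 6.27, 6.44 and 6.36 in Sca1-HGAL replicates 1 to 4, against 6.38, 6.97, 6.59 and 7.11 in Control replicates 1 to 4. Sca1-HGAL replicates 1 and 3 lay among the Control values, and Control replicates 1 and 3 lay among the Sca1-HGAL values. The difference of -0.29 (SE 0.17, interval -0.66 to 0.08) had an unadjusted p = 0.108 and a limma adjusted p = 0.62, and 3 of 4 Sca1-HGAL arrays were below the Control mean. By an exact two-sided permutation test over the 70 assignments of the arrays, p = 0.2, where the smallest possible value is 0.0286. The probes are made for the mouse gene, so this level is no measure of the human HGAL that the mice carry, and the values hold no detection calls. The mean Gcsam level over all arrays, 6.62, was at least as high as that of 35.7% of probe sets. It lay below the array medians of 7.22 to 7.30.

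Both of the highest Gcsam values, 6.97 and 7.11, came from the Control arrays with high Xist. Without these 2 arrays the groups differed by -0.02 (SE 0.15, interval -0.37 to 0.33, unadjusted p = 0.911, limma adjusted p = 0.99). The lower mean in Sca1-HGAL arrays therefore rests on those 2 arrays. What sets them apart besides Xist was not tested, and the labels give no sex. Gcsam also varied more within groups than most probe sets: its pooled SD of 0.29 was at least as large as that of 95.5% of them. Gcsam was highest of its group on Sca1-HGAL replicate 1. The mean of T cell markers was 8.26 there, against 6.98 to 7.90 on the other Sca1-HGAL arrays. That of plasma cell markers was 9.09, against 8.38 to 8.74. The means of B-cell, NK cell, neutrophil and erythroid markers were also highest of the group there, at 12.86, 6.90, 7.87 and 9.14. On Control arrays the T cell and plasma cell means were highest on replicate 3 (7.87 and 8.91), where Gcsam was at 6.59. The part of these cells in the Gcsam level was not tested.

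The 5 genes whose levels followed Gcsam most closely over the 8 arrays were Eif2s3x, Eif2ak2, Ddx60, Carmil1 and Oas3. Likeness was the root mean square difference of log2 levels after each gene's mean was subtracted, and this is a description with no test. It was 0.08 for Eif2s3x, 0.10 for Eif2ak2, 0.11 for Ddx60, 0.12 for Carmil1 and 0.13 for Oas3, against a median of 0.32 over all genes. A gene with the same level on every array would have 0.29 by this measure. Eif2s3x is an X-linked gene for a subunit of a translation initiation factor, and is known to escape X inactivation. Eif2ak2 encodes PKR, a kinase that senses double-stranded RNA, Oas3 an enzyme that senses it, and Ddx60 a helicase, and the 3 genes are known to be induced by interferon. Carmil1 encodes a regulator of actin capping. Like Gcsam, all 5 had their highest value on Control replicate 4. Eif2ak2 was at 8.65, 7.998, 8.06 and 8.30 on Sca1-HGAL arrays and at 8.32, 8.71, 8.42 and 8.95 on Control arrays. Eif2s3x was at 10.94, 10.64, 10.69 and 10.76 on Sca1-HGAL arrays, against 10.74, 11.35, 10.84 and 11.43 on Control arrays, its 2 highest on the Xist-high arrays. The differences of the 5 genes ran from -0.35 for Eif2ak2 to -0.28 for Oas3, and none passed. Without the Xist-high arrays they were -0.03 for Eif2s3x, -0.12 for Eif2ak2, -0.06 for Ddx60, -0.09 for Carmil1 and 0.07 for Oas3.

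**Figure D2:**
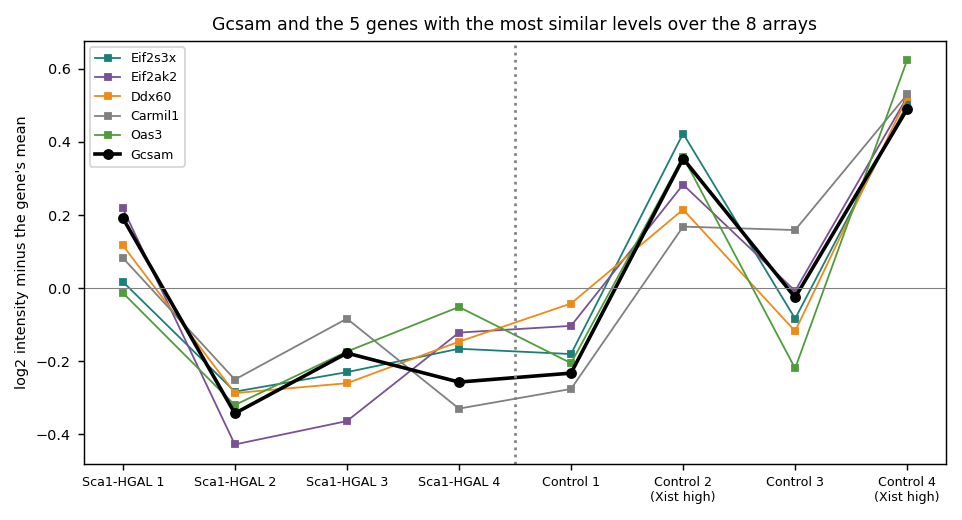
Log2 intensity minus the gene's own mean is plotted on the vertical axis for the 4 Sca1-HGAL and then the 4 Control arrays, with Gcsam in black and the 5 most similar genes in colour. Control replicates 2 and 4, with high Xist, are above the mean for all 6 genes, and Sca1-HGAL replicate 2 is below it for all 6.

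Since 3 of these genes are known as interferon-induced, the promoter windows were read on both strands for 2 copies of GAAA with 2 bases of any kind between them, a core of the interferon-stimulated response element. No other motif was searched, and this one was chosen after the similar genes were seen. The windows are those of RefSeq (GRCm38.p6), 250 bases before to 50 bases after each start site, and they were found for all 7 members (10 windows) and for 4 of the 5 similar genes (4 windows). The Gcsam window, chr16:45610190-45610489 on the plus strand, is shown with those of Ddx60 (chr8:61927837-61928136, plus strand), Eif2ak2 (chr17:78882523-78882822, minus strand) and Oas3 (chr5:120777610-120777909, minus strand). Each reads 5′ to 3′ with matches in capitals.
Gcsam: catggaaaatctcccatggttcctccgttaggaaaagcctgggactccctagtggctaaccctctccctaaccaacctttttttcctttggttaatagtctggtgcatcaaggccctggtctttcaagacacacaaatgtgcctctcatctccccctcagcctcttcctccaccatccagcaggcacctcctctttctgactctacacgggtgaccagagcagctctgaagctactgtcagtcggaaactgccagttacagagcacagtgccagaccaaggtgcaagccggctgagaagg
Ddx60: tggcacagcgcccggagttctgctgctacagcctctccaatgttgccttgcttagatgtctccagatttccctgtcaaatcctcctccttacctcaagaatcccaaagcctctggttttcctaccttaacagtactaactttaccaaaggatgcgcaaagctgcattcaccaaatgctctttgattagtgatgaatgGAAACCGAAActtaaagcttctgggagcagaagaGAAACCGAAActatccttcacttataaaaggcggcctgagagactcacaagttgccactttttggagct
Eif2ak2: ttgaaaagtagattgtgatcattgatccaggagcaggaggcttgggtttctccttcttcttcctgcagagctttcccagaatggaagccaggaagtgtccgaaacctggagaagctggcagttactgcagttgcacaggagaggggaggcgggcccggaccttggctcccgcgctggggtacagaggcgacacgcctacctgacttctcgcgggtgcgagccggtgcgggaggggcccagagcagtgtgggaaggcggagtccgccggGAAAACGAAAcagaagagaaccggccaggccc
Oas3: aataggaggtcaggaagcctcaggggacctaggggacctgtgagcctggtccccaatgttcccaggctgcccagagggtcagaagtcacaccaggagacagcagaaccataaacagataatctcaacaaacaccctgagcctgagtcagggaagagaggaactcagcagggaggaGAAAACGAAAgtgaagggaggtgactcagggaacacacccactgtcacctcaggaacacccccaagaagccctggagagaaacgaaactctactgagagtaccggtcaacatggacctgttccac
The Ddx60 window holds 2 matches, which begin 53 and 19 bases before the start site. In Oas3 a match begins 75 bases before it, and in Eif2ak2 19 bases into the transcript. The Eif2s3x window also holds 1, on the opposite strand (TTTCCTTTTC). So 4 of 4 windows of the similar genes matched and 0 of 10 windows of the members did, that of Gcsam among them. Of 32851 windows of this length 3.44% hold a match. Since the motif was picked because 3 of the similar genes are known as interferon-induced, their matches are no test against that share. With so low a share, no match in 10 windows says nothing particular about the members. A match is a description of the letters and not a site, and no match says only that these letters are not in this window.

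Syk encodes the tyrosine kinase that carries the signal from the B-cell receptor, on chromosome 13. Its levels were 11.80, 12.02, 11.88 and 11.90 on Sca1-HGAL arrays, against 11.93, 11.85, 11.85 and 11.70 on Control arrays. The groups overlapped over most of their range, and Sca1-HGAL replicate 1 was second lowest of all 8. The difference was 0.06 (SE 0.07), with an interval of -0.10 to 0.22 and a limma adjusted p = 0.83. An increase of Syk RNA beyond 1.17-fold lay outside this interval. Without the Xist-high arrays the difference was 0.01 (SE 0.09). Zap70, the relative of Syk that is best known in T cells, was at 6.74 in Sca1-HGAL and 6.76 in Control arrays, a difference of -0.02 (SE 0.06, limma adjusted p = 0.96).

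Genes that act next to Syk were read from a list of 27, of which 24 were analysed here. None passed in limma in either direction, and at an unadjusted p under 0.05 there were 1 higher and 3 lower (1 and 0 without the Xist-high arrays). Their median difference was -0.02, beside 0.02 over all 19937 genes. Fcgr2b, the inhibitory Fc receptor of B cells, was at 11.76, 11.72, 11.54 and 11.77 on Sca1-HGAL arrays and at 11.36, 11.25, 11.18 and 11.32 on Control arrays, with no overlap. Its difference of 0.42 (SE 0.07) had a limma adjusted p = 0.12, and passed only without Sca1-HGAL replicate 3 (0.47, adjusted p = 0.042). Cr2, the complement receptor that works with the B-cell receptor, had a difference of -0.28 (SE 0.12), the adaptor gene Dapp1 -0.21 (SE 0.08) and the exchange factor gene Vav3 -0.20 (SE 0.07). Those of Btk, Blnk and Plcg2, which Syk acts through, were -0.10, -0.08 and 0.05.

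Grb2 encodes an adaptor that links phosphorylated tyrosines to the Ras activator SOS, and lies on chromosome 11. It was at 9.64, 9.77, 9.67 and 9.81 on Sca1-HGAL arrays, against 9.50, 9.65, 9.52 and 9.45 on Control arrays. All 4 Sca1-HGAL arrays were above the Control mean, and the groups overlapped by 1 array, Control replicate 2, which was just above Sca1-HGAL replicate 1. The difference of 0.19 (SE 0.07, interval 0.04 to 0.34), which is 1.14-fold, had an unadjusted p = 0.0165 and a limma adjusted p = 0.40. An exact permutation test gave p = 0.0571. Without the Xist-high arrays it was 0.21 (SE 0.08, unadjusted p = 0.0335, adjusted p = 0.60).

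The adaptors most like Grb2 were also measured. Grap was at 10.62 in Sca1-HGAL and 10.74 in Control arrays (difference -0.13, SE 0.07), and Grap2 at 11.31 in both (-0.01, SE 0.06, with 0.017 after a second quantile normalisation). Of 23 genes that work with Grb2 or resemble it, 21 were analysed here. None passed in limma, 1 was higher and 1 lower at an unadjusted p under 0.05 (0 and 1 without the Xist-high arrays), and the median difference was 0.01. Gab3, a scaffold of the Gab family, had -0.20 (SE 0.07, adjusted p = 0.37) with all Sca1-HGAL arrays below the Control arrays. Ptpn11, the phosphatase SHP2, had 0.18 (SE 0.08, adjusted p = 0.52), and the membrane adaptor gene Lat2 0.16 (SE 0.08, adjusted p = 0.55). Both were without overlap, but barely. The lowest Sca1-HGAL and highest Control values were 9.684 and 9.682 for Ptpn11, and 10.609 and 10.600 for Lat2. With 1 array left out, the differences fell as low as 0.11 and 0.10. Sos1 and Sos2, the Ras activators bound by Grb2, had differences of 0.009 and -0.0046.

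Arhgef11 and Arhgef12 encode PDZ-RhoGEF and LARG, which load RhoA with GTP downstream of G-protein-coupled receptors, and lie on chromosomes 3 and 9. Arhgef12 was at 8.67, 8.49, 8.55 and 8.43 on Sca1-HGAL arrays, against 8.45, 8.17, 7.96 and 8.16 on Control arrays. Every Sca1-HGAL value was above the Control mean, and the single overlap was Control replicate 1, just above Sca1-HGAL replicate 4. The difference of 0.35 (SE 0.10, interval 0.12 to 0.57), or 1.27-fold, had an unadjusted p = 0.00615 and a limma adjusted p = 0.31, rank 434 by p of 21640 probe sets. The exact permutation test gave p = 0.0571. Without the Xist-high arrays the difference was 0.33 (SE 0.14, unadjusted p = 0.0466, adjusted p = 0.61).

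Arhgef11 was at 9.12, 9.04, 9.42 and 9.14 on Sca1-HGAL arrays, against 9.36, 9.32, 9.21 and 9.16 on Control arrays. Sca1-HGAL replicate 3 was the highest of all 8 arrays and the other 3 were the lowest. The difference was -0.08 (SE 0.09, interval -0.28 to 0.12, limma adjusted p = 0.83), and -0.16 (SE 0.07, adjusted p = 0.47) without that array. Arhgef1, the third exchange factor of this subfamily, differed by -0.05 (SE 0.07), with 10.71 in Sca1-HGAL and 10.76 in Control arrays. Whether Arhgef12 differed from its relatives was not tested.

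Rhoa encodes the small GTPase that turns these signals into actomyosin tension. Its main probe set was at 13.29, 13.22, 13.29 and 13.24 on Sca1-HGAL arrays, against 13.30, 13.33, 13.28 and 13.25 on Control arrays. The second was at 13.01, 12.94, 12.95 and 12.89 on Sca1-HGAL arrays, against 13.02, 12.94, 12.99 and 13.05 on Control arrays. Both were steady, with pooled SDs of 0.04 and 0.05, which 0.85% and 3.36% of probe sets matched or undercut. The differences were -0.03 (SE 0.05, interval -0.15 to 0.09, limma adjusted p = 0.90) and -0.05 (SE 0.06, interval -0.18 to 0.07, limma adjusted p = 0.82). The 10 probe sets nearest to the second in identifier order belong to genes on chromosome 9, where Rhoa lies, but all 10 nearest to the main one belong to genes on chromosome 4. Which locus the main one reads is therefore uncertain.

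Among small GTPases of the RhoA family and their regulators 30 of 31 listed genes were analysed here. None passed in limma, 1 was higher and 5 were lower at an unadjusted p under 0.05, and the median difference was -0.03. Arhgap35, a GTPase activator that switches RhoA off, was at 8.72, 8.82, 8.78 and 8.83 on Sca1-HGAL arrays and at 9.05, 8.93, 9.02 and 9.10 on Control arrays, with no overlap. Its difference was -0.24 (SE 0.06, adjusted p = 0.25). Gna12, a G-protein subunit that signals to the exchange factors above, had -0.24 (SE 0.07, adjusted p = 0.35), and Ect2, an exchange factor of dividing cells, -0.28 (SE 0.10, adjusted p = 0.42). Myo9b, a myosin with a part that switches RhoA off, had 0.22 (SE 0.08, adjusted p = 0.40). Rhob and Rhoc, the closest relatives of Rhoa, had -0.11 (SE 0.27) and -0.02 (SE 0.06), and Rhob ranged from 6.87 to 8.09 on Sca1-HGAL arrays alone. Without the Xist-high arrays 0 of the 30 were higher and 3 lower at an unadjusted p under 0.05.

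Myh9 encodes the heavy chain of non-muscle myosin IIA, the motor that pulls on actin, and lies on chromosome 15. Its main probe set was at 11.62, 11.51, 11.49 and 11.44 on Sca1-HGAL arrays, against 11.57, 11.43, 11.32 and 11.34 on Control arrays. The second was at 9.73, 9.83, 9.46 and 9.32 on Sca1-HGAL arrays, against 9.16, 9.10, 9.25 and 9.39 on Control arrays. On the second the groups overlapped only through Sca1-HGAL replicate 4 and Control replicate 4, while on the main one they mixed more widely. The differences were 0.10 (SE 0.07, interval -0.06 to 0.26, limma adjusted p = 0.71) on the main probe set and 0.36 (SE 0.12, interval 0.10 to 0.61, unadjusted p = 0.0114, limma adjusted p = 0.36) on the second. The platform table pairs the main one with the RefSeq transcript and the second with cDNA clones alone, so the 2 may read different parts of the RNA. With the mean of both, Myh9 differed by 0.23 (unadjusted p = 0.0147, limma adjusted p = 0.38).

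**Figure D3:**
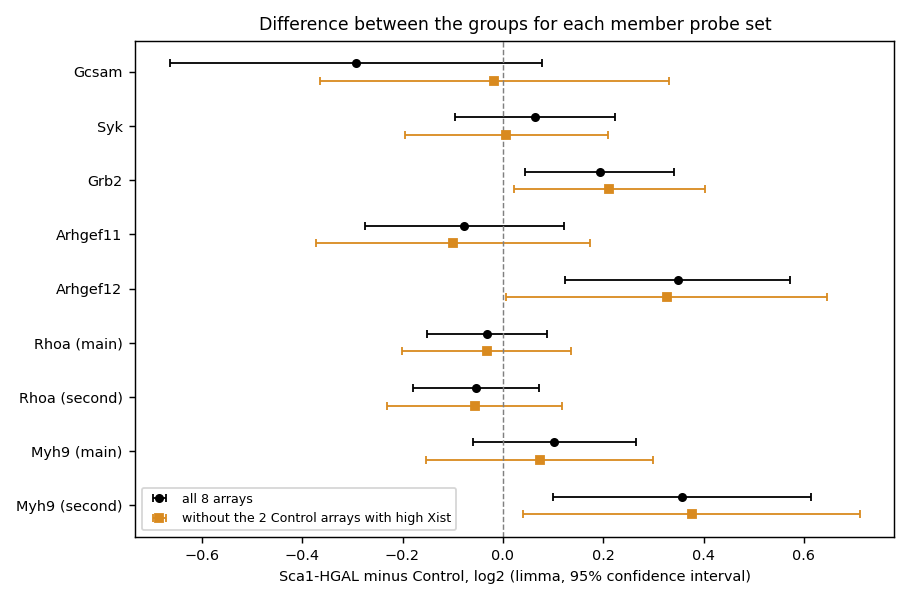
Sca1-HGAL minus Control on the log2 scale is plotted on the horizontal axis with its 95% confidence interval for each of the 9 probe sets, over all 8 arrays (black) and without the 2 Control arrays with high Xist (orange). Gcsam is at -0.29 over all arrays and at -0.02 without those 2, while Grb2 (0.19 and 0.21), Arhgef12 (0.35 and 0.33) and the second Myh9 probe set (0.36 and 0.38) stay above 0.

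The other heavy chains of non-muscle myosin II, Myh10 and Myh14, had differences of -0.07 (SE 0.06) and 0.05 (SE 0.06). Of 27 listed myosin II and RhoA effector genes, 24 were analysed here. None passed in limma, 1 was higher and 0 lower at an unadjusted p under 0.05 (0 and 0 without the Xist-high arrays), and the median difference was -0.01. The one was Myl12b, a regulatory light chain, at 11.97, 11.90, 11.72 and 11.89 on Sca1-HGAL arrays and 11.68, 11.65, 11.67 and 11.75 on Control arrays (difference 0.18, SE 0.07, adjusted p = 0.42). Its close copy Myl12a had -0.07, and such copies can share signal. Myl9, another light chain, had 0.28 (SE 0.17), the formin gene Diaph3 -0.17 (SE 0.12) and the essential light chain Myl6 -0.16 (SE 0.12), while the 4 other Myl6 probe sets had differences from -0.03 to 0.24. Rock1, the kinase through which RhoA acts on myosin, had -0.10.

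Germinal centre genes, the usual company of Gcsam, were analysed here for 13 of 15. None passed in limma, 0 were higher and 3 lower at an unadjusted p under 0.05, and the median difference was -0.06. Rgs13, a brake on chemokine receptor signals, was at 7.03, 5.12, 6.47 and 5.59 on Sca1-HGAL arrays and at 6.51, 7.36, 7.72 and 7.27 on Control arrays (difference -1.16, SE 0.39, adjusted p = 0.38). Ezh2, a histone methyltransferase, had -0.41 (SE 0.16) and the DNA repair gene Neil1 -0.26 (SE 0.11). Efnb1, an ephrin, had 0.14 (SE 0.09), and Bcl6, the repressor that defines the germinal centre, -0.30. Without the Xist-high arrays 0 of 13 had an unadjusted p under 0.05, and the difference was -1.06 (SE 0.53) for Rgs13 and -0.36 (SE 0.22) for Ezh2. The median difference of the 13 was then 0.0044, with 8 positive and 5 negative. Were germinal centre RNA lower, fewer germinal centre cells and less RNA per cell could not be told apart in bulk RNA.

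**Figure D4:**
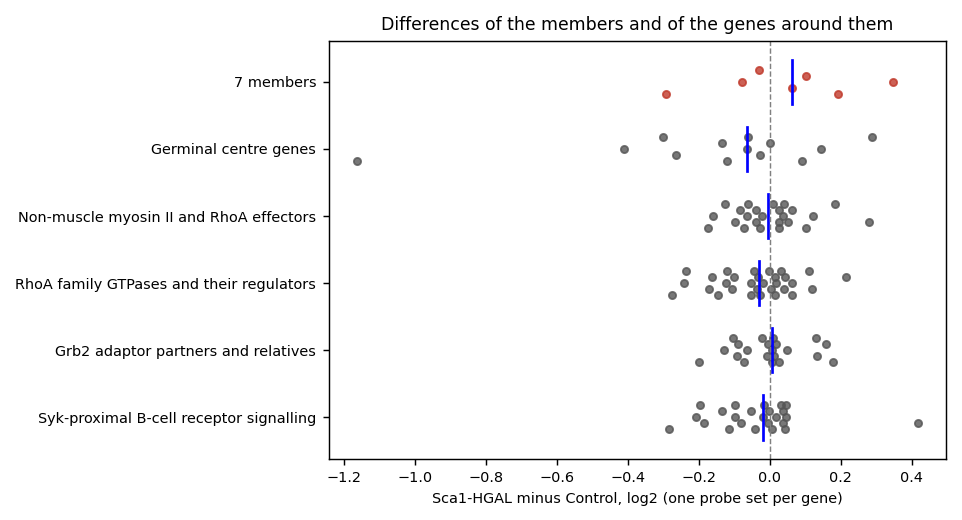
Each point is the Sca1-HGAL minus Control difference (log2, horizontal axis) of 1 gene, for the 7 members in red and the 5 lists of related genes in grey, and blue lines are medians. The medians lie between -0.06 (germinal centre genes) and 0.06 (the members), with Rgs13 at -1.16 and Fcgr2b at 0.42 farthest out.

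The mean level of the markers of other cell types was higher in Sca1-HGAL arrays for some types and lower for others, and no such mean was tested. The mean log2 level of 8 neutrophil markers was 6.44 to 7.87 on Sca1-HGAL and 6.28 to 7.09 on Control arrays, with 8 and 6 of 8 above log2 6 in the same order. For 8 macrophage and monocyte markers the range was 7.55 to 8.02 on Sca1-HGAL and 7.47 to 7.89 on Control arrays, and their differences ran both ways. Adgre1, the gene of the macrophage marker F4/80, and Itgam, that of the integrin chain CD11b, were higher on every Sca1-HGAL array than on any Control array (1.01, limma adjusted p = 0.12, and 0.99, adjusted p = 0.26), while Csf1r, C1qa and C1qb had -0.18, -0.11 and -0.18. The mean of 6 platelet and megakaryocyte markers was 7.75 to 8.54 on Sca1-HGAL and 7.39 to 7.87 on Control arrays, and all 6 were above log2 6 in both groups. The highest of these platelet means, 8.54, was that of Sca1-HGAL replicate 4. The mean marker level differed by 0.41 for erythroid cells (2 of 5 listed genes measured) and by 0.15 for dendritic cells, against -0.26 for NK cells and -0.25 for plasmacytoid dendritic cells. For T cells and plasma cells it differed by 0.08 and -0.03. The part of these cells in the levels of Grb2, Arhgef12 and Myh9 was not tested.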

How the data were processed

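The deposited table holds intensities from RMA, run by the authors per the submitters' processing notes. Its version, annotation and build were not given in the sources used here. Values ran from 4.94 to 24302 on a linear scale, so log2 was taken, with no pseudocount and no filter. RMA draws arrays to a common distribution and shrinks folds of dim probe sets. Of 34760 rows, 21640 had 1 gene symbol in the platform table, 1321 had several and 11799 were not listed. Groups and replicate numbers came from the titles. The 4 Sca1-HGAL arrays were compared with the 4 Control arrays in limma 3.58.1 (R 4.3.3; lmFit, eBayes, two-sided, no covariate) over all 21640 probe sets, which was tested on simulated data first. The members and lists were chosen with earlier results of these data known. From each list, up to 4 genes with the smallest p are named, with 8 fixed relatives and the 5 genes most like Gcsam; Btk, Blnk, Plcg2, Sos1, Sos2, Myl12a, Rock1 and Bcl6 were added after their values were seen. A gene was represented by its probe set with the highest mean. Same-numbered arrays did not deviate together (correlations of -0.16 to 0.05), so no block was used. Alternatives were other normalisations, a filter at log2 6, array weights, the block, other priors, all rows, probe set means and leaving arrays out. Sequences and gene positions are from RefSeq (GRCm38.p6).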

Additional observations from a re-analysis of the deposited data

Results flagged for a closer look

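In 7 of 92 groups of 4 values, 1 array stood far from the other 3 of its group, where chance gives about 1 in 20 groups, or 4.6. None of these was among the 18 groups of the members' own probe sets. Sca1-HGAL replicate 2 was highest for Ptpn11 (10.003, others 9.68 to 9.73) and for Lat2 (10.87, others 10.61 to 10.63). Sca1-HGAL replicate 4 was highest for Grap (10.71, others 10.58 to 10.59). Control replicate 4 was highest for Gna12 (9.85, others 9.57 to 9.60), and Control replicate 3 for Diaph3 (7.004, others 6.58 to 6.64) and Myh10 (6.45, others 6.33 to 6.34). The mean of the macrophage and monocyte markers was highest on Control replicate 2, at 7.89, with the other Control arrays at 7.47 to 7.51.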

How the results depend on the processing

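For the 7 main probe sets, all 126 alternative values kept their direction and stayed short of an adjusted p under 0.05 (for the exact test, a p under 0.05). The log2 filter, the block, other priors, all rows and the exact test leave a difference unchanged. Its direction was fixed in advance there, and so was that of probe set means for genes with a single probe set. Gcsam kept its direction without the Xist-high arrays only at -0.02 (limma unadjusted p = 0.911). Leaving out 1 array at a time, Gcsam ranged from -0.42 to -0.18, Syk from 0.02 to 0.10, Grb2 from 0.16 to 0.23, Arhgef11 from -0.16 to -0.03, Arhgef12 from 0.27 to 0.44, Rhoa from -0.04 to -0.02 and Myh9 from 0.07 to 0.15. Their limma adjusted p ranged over the alternatives from 0.37 to 0.99 for Gcsam, 0.24 to 0.68 for Grb2 and 0.14 to 0.61 for Arhgef12. The number of members below the unadjusted threshold in limma, recounted under each alternative after seeing the data, was 1 to 3. The share of all probe sets below it was 7.24% to 12.3%. The count was 1 without Sca1-HGAL replicate 4 (7.76% of all). It was 3 with array weights (12.3%), probe set means (9.76% of genes), without Sca1-HGAL replicate 1 (11.9%) and without Control replicate 1 (8.35%). Beside Grb2 and Arhgef12, the added member was Myh9 with probe set means and Gcsam in the others. Probe sets past the adjusted threshold numbered 12 with array weights, 6 with the replicate block, 2 with probe sets averaged per gene, 2 without the Xist-high arrays, and 1 to 40 leaving out 1 array, with 40 without Sca1-HGAL replicate 3 and 2 without Sca1-HGAL replicate 1 or Control replicate 1. At an unadjusted p under 0.05, 1196 were higher and 879 lower, against 975 and 1073 with median centring. Same-numbered arrays did not deviate together, but 4 such pairs cannot exclude a pairing. The block changed no call of a member. Of 459 alternative values for 27 other named genes, 13 changed sign: Myl6 was at 0.021 with the mean of its probe sets, Grap2 at 0.017 with a second quantile normalisation, and Zap70 and Rhoc at 0.00072 and 0.0018 with array weights. Leaving out 1 array, Zap70 ranged from -0.056 to 0.017, Grap2 from -0.038 to 0.019, Rhob from -0.35 to 0.093 and Rhoc from -0.049 to 0.015. The cause of these changes was not tested. Gcsam was dim, with a mean level of 6.62. The values carry no signal over background, so how far dimness limits Gcsam is unknown.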
